A study of Mus musculus with 8 samples.

Results

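The genes described here are 10 members of the network that holds early embryonic cells in the pluripotent state, *Pou5f1*, *Nanog*, *Sall4*, *Esrrb*, *Klf2*, *Klf4*, *Utf1*, *Dppa5a*, *Tdgf1* and *Lin28a*, read in 8 mouse embryos at E8.5. They were chosen by name, as 10 of the 20660 genes that could be named on the array. They are covered by 14 of 55681 probes: 8 of the genes have 1 probe, while *Sall4* and *Tdgf1* have 3 each. Of the 14 probes, 13 were well above background on all 8 arrays, and the third *Tdgf1* probe was so on 1 array. The series holds no earlier stage, so how far these levels had declined since the epiblast was not tested.

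The embryos were wild-type at *Eed*, which encodes a core subunit of Polycomb Repressive Complex 2 (PRC2), and their fathers came from the colony that carries the hypomorphic Eedl7Rn5-1989SB allele on a C57bl6/129 background. The labels give the wild-type mothers as C57bl6/129 too, while a legend of the study names another wild-type strain. Of the 8, 4 were sired by wild-type (Eed wt/wt, "WT") fathers and 4 by heterozygous (Eed hypo/wt, "HET") fathers, all with wild-type mothers, and each group held 2 female and 2 male embryos. Each embryo was a whole, stage- and size-matched E8.5 embryo with a one-colour Agilent array of its own. The comparison asks whether the father's *Eed* genotype left a trace in wild-type offspring. The study's legends differ on how many fathers were used. In the WT group 3 of the 4 embryos (replicates 2, 3 and 4) share the first part of their embryo code. By the slide codes in the headers of the scanner files, the 4 arrays of each group were on 1 slide and the groups on different slides, and the effects of slide and of father cannot be told apart. The colony also carried an *Oct4*GFP transgene, and whether the *Pou5f1* probe reads transcripts of that transgene was not tested.

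OCT4 (encoded by *Pou5f1*), NANOG and SOX2 bind together at enhancers and promoters of pluripotent cells, including those of their own genes, and ESRRB, KLF2 and KLF4 strengthen this circuit in the naive state. From gastrulation on the circuit is gradually shut down in the soma, and *Pou5f1* and *Nanog* are known to remain in primordial germ cells, which are few at this age. Other members have later roles outside pluripotency, among them *Klf2* in endothelium, *Klf4* in epithelia, *Sall4* in posterior mesoderm, limb and heart, *Tdgf1* in Nodal signalling and *Lin28a* in developmental timing.

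The upstream sequences of *Pou5f1* and *Nanog* hold short elements of the kind that proteins of the list read, so the 250 bases before each gene's first start in RefSeq are printed here (GRCm38.p6, plus strand). The first window lies at chr17:35505782-35506031 and the second at chr6:122707239-122707488. Capitals mark TTTGCAT (part of the octamer element, read by OCT4), ACAATG (the core of a SOX element), AGGTCA (a nuclear receptor half-site, the kind read by ESRRB), GGGCGG (a GC box) and GGGTGG (the CACCC box, the kind read by Krüppel-like factors), each searched on both strands.
Pou5f1: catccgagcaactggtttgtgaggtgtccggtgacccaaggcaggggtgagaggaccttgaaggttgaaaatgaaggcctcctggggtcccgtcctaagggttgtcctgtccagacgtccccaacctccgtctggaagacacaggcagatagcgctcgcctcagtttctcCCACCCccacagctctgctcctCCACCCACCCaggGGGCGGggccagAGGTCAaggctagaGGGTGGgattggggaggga
Nanog: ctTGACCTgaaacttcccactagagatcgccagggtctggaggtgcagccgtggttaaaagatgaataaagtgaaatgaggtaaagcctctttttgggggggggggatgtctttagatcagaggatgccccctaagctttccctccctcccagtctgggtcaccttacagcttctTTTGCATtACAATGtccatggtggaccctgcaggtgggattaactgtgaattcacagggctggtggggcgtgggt

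The *Nanog* window held TTTGCAT and ACAATG with 1 base between them, from 75 to 62 bases before the start. Of 32851 upstream windows of this length in the table, 2 held this arrangement (0.00609%), and both belong to *Nanog*, which has 2 starts there. No other spacing or order was searched, so a match in *Nanog* was given and the share tests nothing. TTTGCAT alone was in 4.12% of windows and ACAATG alone in 10.7%. The *Pou5f1* window held a GC box 45 to 40 bases and a nuclear receptor half-site 33 to 28 bases before its start, with 4 CACCC boxes of which 2 overlap. Of the 8 member genes with at least 1 window, 5 held a GC box (32.7% of all windows), 4 a CACCC box (28.1%) and 2 a nuclear receptor half-site (14%). The SOX core was in 3 and TTTGCAT in 1. These counts are of genes with a match in any of their windows, 11 in all, while the shares are of single windows. The 2 are therefore not on the same footing. The *Nanog* CACCC box and the *Pou5f1* SOX core lie outside the printed windows. *Dppa5a* and *Sall4* were not matched. A match is a run of letters only and says nothing of binding in these embryos.

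Values below are log2 of the background-subtracted intensity minus the 75th percentile of the same array, so 0 is that percentile and each unit is a doubling. They are compared between embryos for 1 probe at a time, never between probes, because probes differ in brightness for equal RNA. For genes with several probes the brightest tested probe is given first. In the embryos of WT fathers 32160 to 39545 probes were well above background, and in those of HET fathers 29204 to 38888. WT replicate 1 and HET replicate 3 had the most detected probes in their groups, and HET replicate 4 had a median local background of 133 against 30 to 51 on the other arrays. The number of arrays limits the precision, and no label says more of the embryos' litters than the codes, so p-values measure the spread between these embryos.

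*Pou5f1*, the octamer-binding factor at the centre of the network, had the widest spread of the 10 genes, under this scaling as under array-median and quantile scaling. In the embryos of WT fathers it read -3.24, -3.24, -2.74 and -1.96 for replicates 1 to 4, and in those of HET fathers -4.12, -3.14, -2.21 and -1.82. High and low embryos were found on both sides, and the lowest and the highest of all 8 both had HET fathers. Unscaled intensities ran from 61.3 to 273, and the scaled signal spanned 4.93-fold. This span was 2.67-fold without HET replicate 1 and 4.47-fold without HET replicate 4, the array with the high local background. With normexp background correction, which adds an offset of 50 to every spot, it was 1.28 on the log2 scale in place of 2.30, and *Tdgf1*, at 1.49, was then the widest. The pooled standard deviation (SD) within groups, 0.84, was higher than that of 90.7% of tested probes, whose median was 0.21. The 3 embryos of WT fathers that share the first part of their code ranged from -3.24 to -1.96.

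Father groups did not differ in *Pou5f1* beyond this spread. The means were -2.79 ± 0.60 and -2.82 ± 1.03 (SD, n = 4 each) for WT and HET fathers, a difference of -0.03 with a 95% interval of -1.28 to 1.23 (limma, adjusted p = 1.00). That interval reaches from 0.412-fold to 2.34-fold, so neither a doubling nor a halving was excluded at this number of embryos. Primordial germ cell markers were read beside it. Of the 12 listed, 11 were tested, and their mean departure from the 8-embryo mean ran from -0.06 to 0.05 in the WT group and from -0.17 to 0.15 in the HET group, lowest in HET replicate 1, the embryo with the lowest *Pou5f1*. That low mean rests on *Dppa3*, a dim germ cell marker named after its values were seen, which was above background on 6 arrays and 2.26 below its own mean there. Without it the mean of the other 10 markers was 0.034 in that embryo, and lowest in WT replicate 1, at -0.22. *Dazl*, a germ cell RNA-binding protein that starts later, was above background on 0 arrays and was the marker not tested. *Ddx4*, another gene of this list named after its values were seen, was above background on all 8 arrays. The part of germ cell number in the *Pou5f1* values was not tested, and in whole embryos fewer cells of a type and less RNA per cell cannot be told apart.

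**Figure D1:**
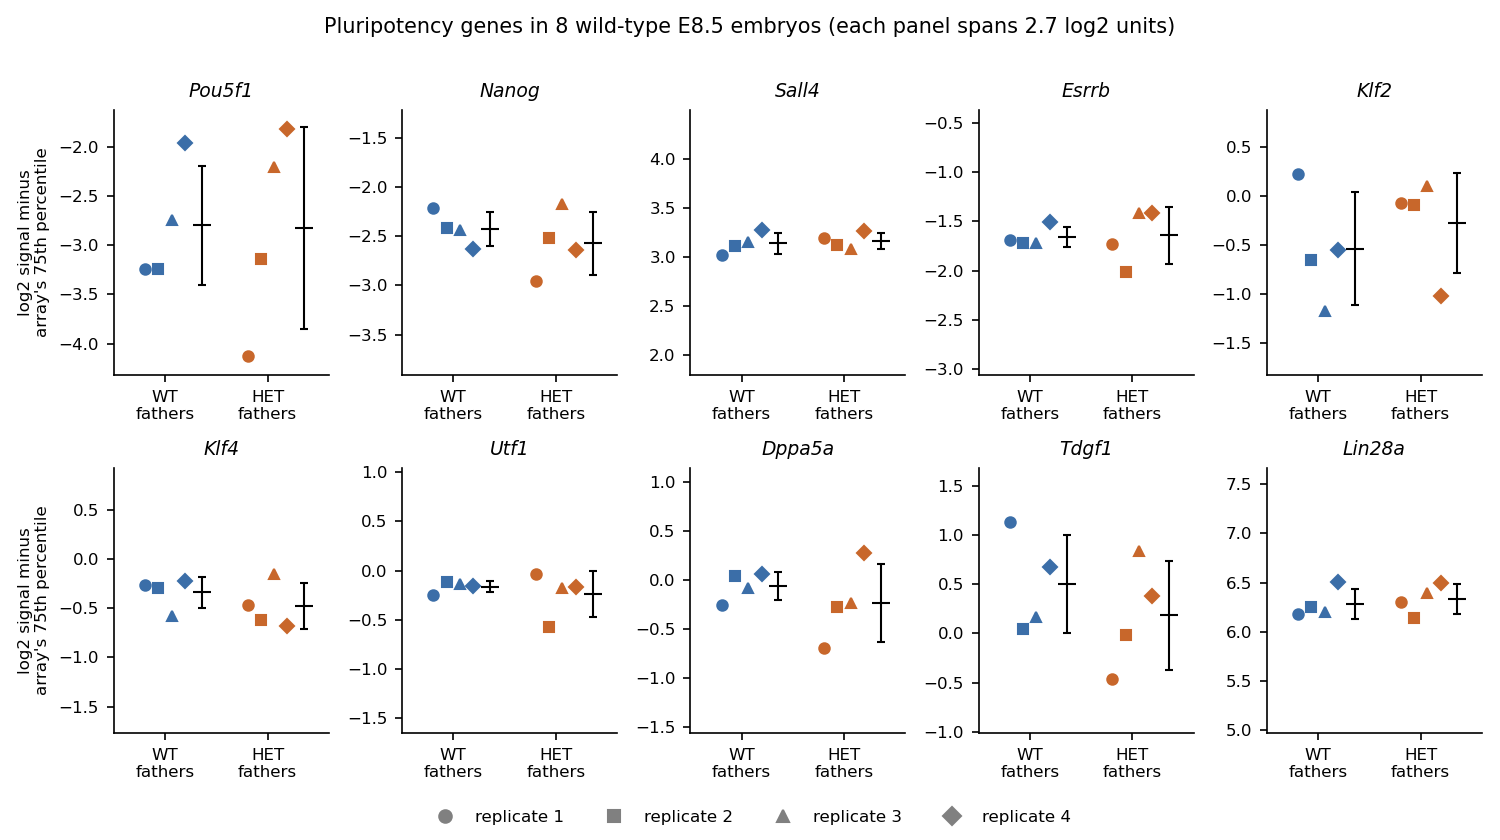
Scaled log2 signal (vertical axis, log2 signal minus the array's 75th percentile) of the brightest probe of each gene in the 4 embryos of WT fathers (blue) and the 4 of HET fathers (orange), with the group mean and SD in black. Every panel spans the same number of log2 units, so the wide scatter of *Pou5f1* (-4.12 to -1.82) can be set against the narrow one of *Sall4* (3.02 to 3.28), and in all 10 panels the groups overlap.

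*Nanog*, the homeodomain partner of OCT4, was also dim but steadier. It read -2.21, -2.42, -2.43 and -2.63 in the WT group and -2.95, -2.52, -2.17 and -2.64 in the HET group. Both extremes were again embryos of HET fathers, and the groups overlapped. The difference was -0.15 (95% interval -0.55 to 0.25, adjusted p = 1.00 from limma), and the SD within groups was 0.26. It was -0.022 without HET replicate 1 and -0.28 without HET replicate 3.

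*Sall4*, a zinc-finger factor of pluripotent cells and of the growing posterior embryo, had the most even signal of the set under this scaling. Its brightest probe, A_51_P349087, read 3.02, 3.11, 3.15 and 3.28 in the WT group and 3.19, 3.12, 3.08 and 3.26 in the HET group. The 8 embryos lay within 1.19-fold of each other. When arrays were scaled by their median the span was 2.94-fold, and *Tdgf1* was then the narrowest at 1.89-fold. That scaling subtracts a median log2 signal of 6.79 in HET replicate 3, against 5.64 to 6.13 in the other embryos. On the main scale the SD of 0.09 was larger than that of 14.4% of tested probes. The difference of 0.03 had the narrowest interval of the 10 genes, -0.16 to 0.21. The other two *Sall4* probes scattered more, with SDs of 0.33 and 0.38 and differences of 0.11 and 0.06. WT replicate 1 was the highest embryo on both of these and the lowest on the brightest one, so the probes of *Sall4* do not rank the embryos alike.

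Among the reinforcing factors, *Esrrb*, an orphan nuclear receptor, read -1.69, -1.72, -1.72 and -1.50 in the WT group and -1.73, -2.02, -1.41 and -1.41 in the HET group. The difference was 0.02 (95% interval -0.33 to 0.36), and it changed sign when arrays were scaled by their median. *Klf4*, a Krüppel-like factor also active in epithelia, lay between -0.57 and -0.23 in the WT group (median -0.28) and between -0.68 and -0.16 in the HET group (median -0.54). Its difference of -0.14 had the smallest unadjusted p of the 13 tested probes, 0.342, and an adjusted p of 1.00 from limma. It ran from -0.25 without HET replicate 3 to -0.07 without HET replicate 4.

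*Klf2*, a relative of *Klf4* that is also a flow-responsive endothelial gene, read 0.22, -0.65, -1.17 and -0.55 in the WT group and -0.07, -0.10, 0.10 and -1.02 in the HET group. WT replicate 1 was high and HET replicate 4 low for its group, and the range of one group covered nearly that of the other. The difference, 0.26, was the largest positive one of the 10 genes, with a 95% interval of -0.55 to 1.08 (adjusted p = 1.00 from limma). It was 0.52 without WT replicate 1 or without HET replicate 4, 0.14 without HET replicate 3 and 0.05 without WT replicate 3. All 10 endothelial markers were tested, and 9 of them were higher in the HET group (median 0.12, none at an unadjusted p under 0.05). Their mean departure ran from -0.19 to 0.08 in the WT group and from -0.06 to 0.19 in the HET group, and was lowest in WT replicate 1, where *Klf2* was highest. The part of endothelial cell number in *Klf2* was not tested.

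*Utf1* and *Dppa5a* are genes of embryonic stem cells and germ cells, the first for a chromatin-bound protein and the second for an RNA-binding protein. *Utf1* was tight in the WT group, from -0.24 to -0.11, and in the HET group ran from -0.57 in replicate 2 to -0.03 in replicate 1. The difference in *Utf1* was -0.07 (95% interval -0.35 to 0.20). *Dppa5a* read -0.26, 0.04, -0.09 and 0.06 in the WT group and -0.69, -0.28, -0.23 and 0.28 in the HET group. The spread among the embryos of HET fathers covered the whole WT range, and the difference was -0.17 (95% interval -0.63 to 0.29). It was -0.018 without HET replicate 1 and -0.34 without HET replicate 4.

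*Tdgf1* encodes CRIPTO, the membrane-anchored co-receptor through which Nodal signals. Its brightest probe, A_55_P1968028, read 1.14, 0.05, 0.17 and 0.68 in the WT group and -0.46, -0.02, 0.84 and 0.38 in the HET group, a 3.02-fold span. The highest embryo was WT replicate 1 and the lowest HET replicate 1, and the remaining 6 were interleaved. The difference, -0.32, was the largest in size of the 10 genes, with a 95% interval of -1.11 to 0.47, and it ran from -0.54 without HET replicate 3 to -0.11 without HET replicate 1 or WT replicate 1. The dim second probe, A_55_P2183147, stayed between -4.02 and -3.56 in all embryos (difference 0.03), and so did not show the wide spread of the first. The third, A_55_P2058540, lay between -5.94 and -4.85 and was not tested. *Nodal* itself, read in the list of other pluripotency genes and named here after its values were seen, differed by 0.09.

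*Lin28a* encodes an RNA-binding protein that blocks the maturation of let-7 microRNAs. Its probe read 6.18, 6.25, 6.21 and 6.50 in the WT group and 6.30, 6.13, 6.39 and 6.50 in the HET group. All 8 embryos fell within 1.29-fold, and the difference of 0.05 (95% interval -0.21 to 0.31) excluded a change of 1.5-fold in either direction. When arrays were scaled by their median the range was 2.78-fold, the difference -0.047 and its interval -0.86 to 0.77, which holds such a change both ways. The let-7 family recognises targets through bases 2 to 8, shown in capitals for a mature microRNA whose hairpin precursor is known to be bound by LIN28.
mmu-let-7g-5p: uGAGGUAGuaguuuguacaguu
This seed is shared by 11 mature let-7 and related sequences in the RefSeq table. No microRNA was measured, but 8 known targets of let-7 were, and of these 5 were higher and 3 lower in the HET group, between -0.19 and 0.08, with none at an unadjusted p under 0.05.

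Over the 10 genes, 4 were higher and 6 lower in the embryos of HET fathers (5 and 5 without WT replicate 4 or HET replicate 1), with a median difference of -0.05 against -0.0023 for all 33096 tested probes. None of the 13 tested probes was called at an adjusted p under 0.01 and at least 2-fold with limma, where 0% of all tested probes were called. None had an unadjusted p under 0.05, which 4.34% of all tested probes had, and none had groups that did not overlap, which 3.15% of all had. The smallest adjusted p over the whole array was 0.223. The 95% intervals excluded a 2-fold change for 7 of the 10 genes and a 1.5-fold change for 6, while those of *Pou5f1*, *Klf2* and *Tdgf1* reached 2-fold. These intervals bound the effects of father and slide together. With arrays scaled by their median, 7 genes excluded 2-fold and 0 excluded 1.5-fold. With embryo code as a random block (estimated correlation within a code 0.53), 7 excluded 2-fold and 5 excluded 1.5-fold. The *Pou5f1* interval was then -1.51 to 1.64.

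**Figure D2:**
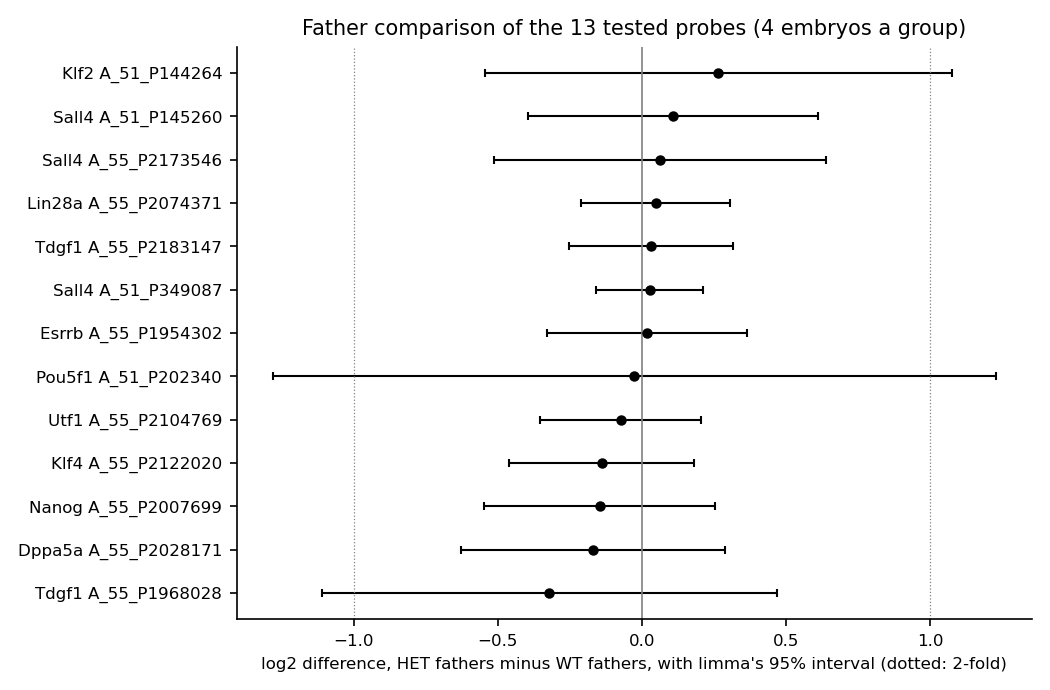
Difference of the log2 group means, HET fathers minus WT fathers (horizontal axis), with limma's 95% interval for each of the 13 tested probes. Every interval holds 0, and those of *Pou5f1*, *Klf2* and the brightest *Tdgf1* probe cross the dotted lines that mark a 2-fold change.

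Embryo sex was compared with father group in the fit. By their brightest probes, the 10 genes differed between female and male embryos by -0.25 to 0.15, with 4 higher and 6 lower in females. For *Sall4* that probe gave -0.02, while its other probes gave 0.37 (A_51_P145260) and 0.28 (A_55_P2173546). The second *Tdgf1* probe gave 0.14, as did its brightest. None of the 13 tested probes was called, against 0.0332% of all tested probes. None had an unadjusted p under 0.05, against 3.36%. *Klf4* came closest, at -0.25 (unadjusted p = 0.0642, adjusted p = 1.00 from limma).

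Individual embryos departed from the mean in several of the 10 genes together. HET replicate 1 was the lowest embryo for 4 of the 10 genes (*Pou5f1*, *Nanog*, *Dppa5a* and *Tdgf1*), and HET replicate 2 was the lowest for 3 (*Esrrb*, *Utf1* and *Lin28a*). HET replicate 4 was the highest for 3, and WT replicate 4 for *Sall4* and *Lin28a*. HET replicate 3 was the highest for *Nanog* and *Klf4*, and WT replicate 1 for *Klf2* and *Tdgf1*. Both of these last arrays have the most detected probes, so the correlations below are also given without them. HET replicate 1 had 29782 detected probes, more only than HET replicate 4 (29204). The part of detection in its low values was not tested.

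**Figure D3:**
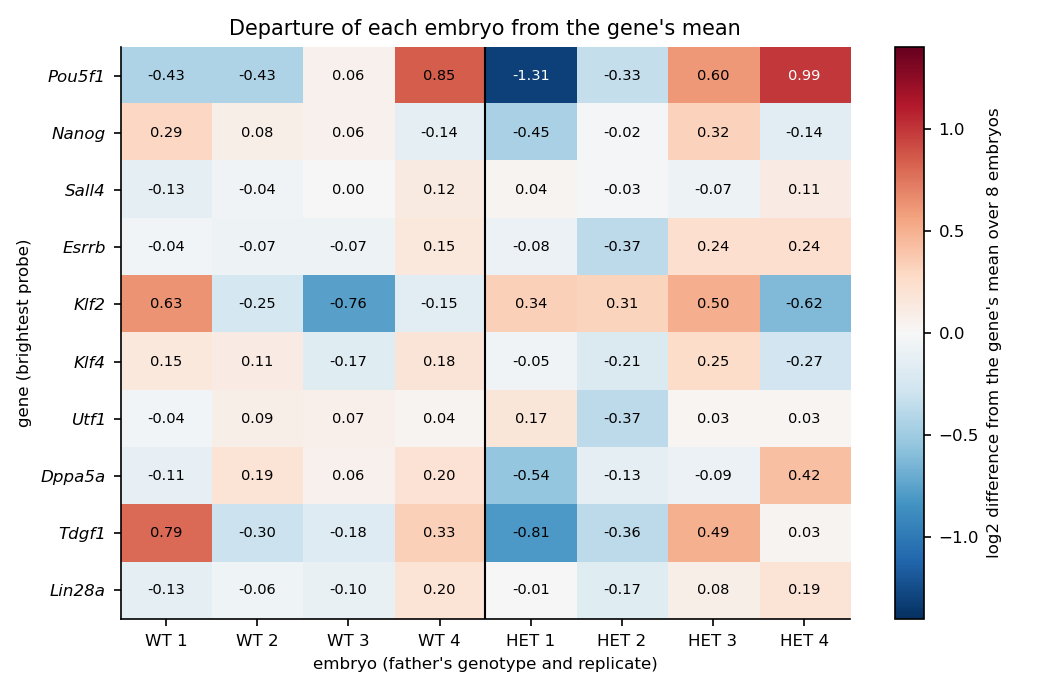
Departure of each embryo from the gene's mean over 8 embryos (colour and number, log2 units), for the brightest probe of each gene, with the embryos of WT fathers left of the line and those of HET fathers right of it. HET replicate 1 is low in *Pou5f1* (-1.31), *Tdgf1* (-0.81), *Dppa5a* (-0.54) and *Nanog* (-0.45) but not in *Klf2* (0.34) or *Utf1* (0.17).

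Of the 45 pairs of member genes, 31 had a positive Pearson correlation across the 8 embryos (median r = 0.26), 5 had an exact permutation p under 0.05, and none passed adjustment over the 45 pairs. *Esrrb* and *Lin28a* were the closest pair, with r = 0.87 (exact permutation p = 0.00461, adjusted p = 0.208) and Spearman's rho = 0.71 (exact permutation p = 0.0576, adjusted p = 0.432). The correlation was 0.87 with group means removed, 0.79 without the 2 embryos farthest in *Esrrb*, and 0.93 without WT replicate 1 and HET replicate 3.

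*Pou5f1* and *Dppa5a* had r = 0.80 (exact permutation p = 0.0168, adjusted p = 0.334) and rho = 0.71 (exact permutation p = 0.0576, adjusted p = 0.432). Within groups r was 0.83, and without WT replicate 1 and HET replicate 3 it was 0.88. It fell to 0.30 without the 2 embryos farthest in *Pou5f1*, so the relation rests on those embryos. *Nanog* and the brightest *Sall4* probe ran in opposite directions, with r = -0.74 (exact permutation p = 0.0335, adjusted p = 0.334). Spearman's rho was -0.86 (exact permutation p = 0.0107, adjusted p = 0.432). Here r was -0.94 without the 2 farthest embryos and -0.48 without WT replicate 1 and HET replicate 3. WT replicate 1, at -2.21 in *Nanog*, was the lowest embryo on that probe (3.02). It was the highest on the other *Sall4* probes, A_51_P145260 (0.44) and A_55_P2173546 (-1.81). *Nanog* was not paired with these, so the direction is that of the brightest probe only. *Pou5f1* and *Nanog*, whose proteins share targets, had r = 0.28 (exact permutation p = 0.507, adjusted p = 0.722) and rho = -0.048 (exact permutation p = 0.935, adjusted p = 0.978), with r at -0.20 without the 2 embryos farthest in *Pou5f1* and 0.35 without WT replicate 1 and HET replicate 3.

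**Figure D4:**
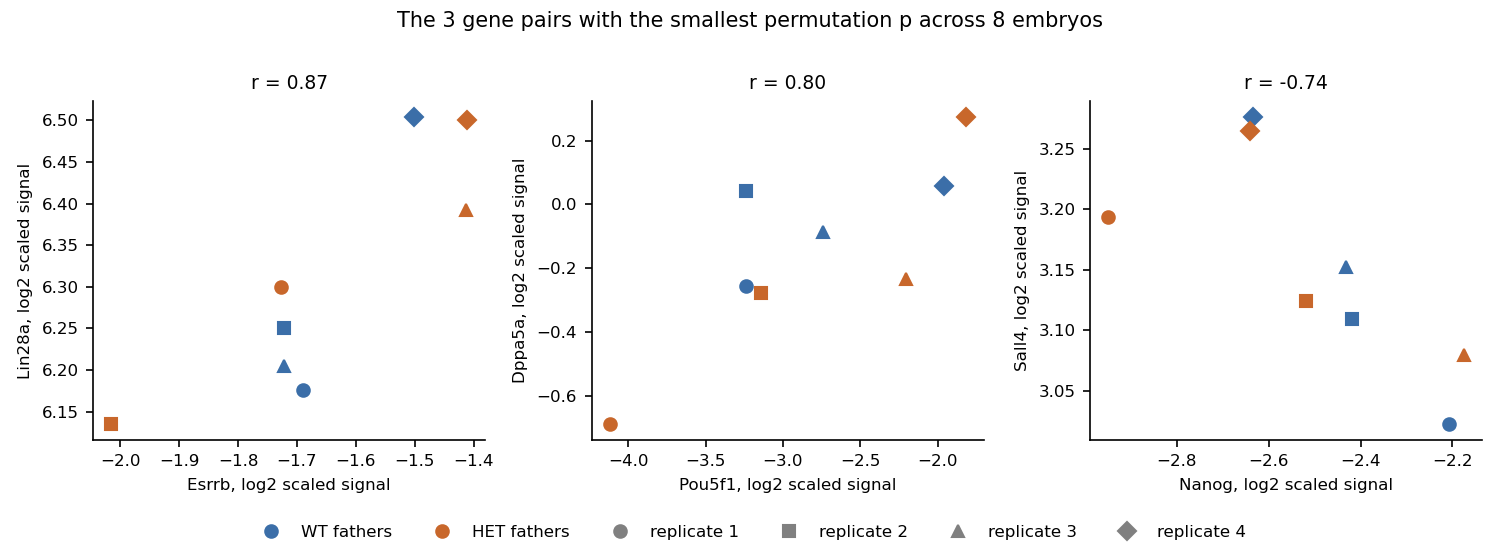
Scaled log2 signals of the pairs with the smallest exact permutation p, each point an embryo (blue WT fathers, orange HET fathers, symbol for the replicate). *Lin28a* rises with *Esrrb* (r = 0.87) and *Dppa5a* with *Pou5f1* (r = 0.80), where HET replicate 1 lies alone at the lower left. The brightest *Sall4* probe falls as *Nanog* rises (r = -0.74).

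Other genes whose probes followed a member most closely, with group means removed and as a description over 8 embryos, were found for each gene. For *Pou5f1* these were *Itgb7*, a lymphocyte integrin subunit (r = 0.98), *Fbxo31*, an F-box protein (r = 0.98), and *Pou5f1-rs4* (r = 0.98). The last is 1 of 5 *Pou5f1*-related pseudogenes in the RefSeq table. It was well above background on 6 arrays and ran from -6.66 in HET replicate 1 to -3.45 in WT replicate 4. Whether the *Pou5f1* probe and the *Pou5f1-rs4* probe read each other's transcripts was not tested, so both levels are uncertain. For *Esrrb* the closest gene was *Klf5* (r = 0.99), another Krüppel-like factor of the naive circuit, followed by *Vipr1* and *Ttyh2*.

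For *Lin28a* the closest was *Smarcd3*, a chromatin remodelling subunit (r = 0.99), followed by *Atp8b2*, and for *Sall4* it was *Pianp* (r = 0.98), with *Slc4a5* and *Greb1l*. *Dppa5a* was closest to *Scfd1* (r = 0.99), *Nanog* to the globin gene *Hbq1a* (r = 0.99), *Klf4* to *Limd1* (r = 1.00), *Klf2* to *Slc25a2* (r = 0.97), *Utf1* to *Gapvd1* (r = 0.98) and *Tdgf1* to the olfactory receptor gene *Olfr998* (r = 1.00). *Olfr998* was well above background on only 4 arrays. With 8 embryos and 33096 tested probes, close followers are found by search alone.

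The wider pluripotency network was read in the same fit. Of 23 further genes listed, 21 were tested, 9 higher and 12 lower in the HET group (median -0.06, range -0.20 to 0.39), with none at an unadjusted p under 0.05. *Nr0b1* and *Tcl1* were above background on 2 arrays and 1 array and were not tested. All 11 markers of the primed epiblast were tested, 6 higher and 5 lower (median 0.0036). Of the germ cell markers 7 were higher and 4 lower (median 0.05), and *Nanos3*, an RNA-binding protein needed to keep primordial germ cells alive, was the only gene of any list with an unadjusted p under 0.05. It read 0.43, 0.35, 0.32 and 0.30 in the WT group and 0.39, 0.64, 0.63 and 0.62 in the HET group. Of the HET embryos 3 were above all WT embryos and replicate 1 was not, and the difference of 0.22 did not pass adjustment (limma, adjusted p = 1.00).

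Markers of the tissues in a whole E8.5 embryo were present. All 8 cardiac, 8 primitive erythroid and 10 visceral endoderm genes and 12 tail bud genes were tested, and the visceral endoderm genes, which mark the yolk sac, were above background on all 8 arrays. Of the extraembryonic ectoderm and trophoblast list 8 of 10 were tested (4 higher, 4 lower). Tail bud genes were 4 higher and 8 lower in the HET group (median -0.11), erythroid genes 8 higher and 0 lower (median 0.18), cardiac genes 6 higher and 2 lower (median 0.01), and visceral endoderm genes 6 higher and 4 lower (median 0.03). None of these had an unadjusted p under 0.05. The erythroid mean was -0.997 in WT replicate 4, the WT embryo with the highest *Pou5f1*, *Sall4* and *Lin28a*, and -0.01 to 0.45 in the other embryos. Without that embryo 1 erythroid gene was higher and 7 were lower in the HET group (median -0.039), and 1 visceral endoderm gene was higher and 9 were lower (median -0.066). The tail bud mean was also highest in that embryo, at 0.29, and without it the tail bud median was -0.025. The part of tissue make-up in its values was not tested.

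**Figure D5:**
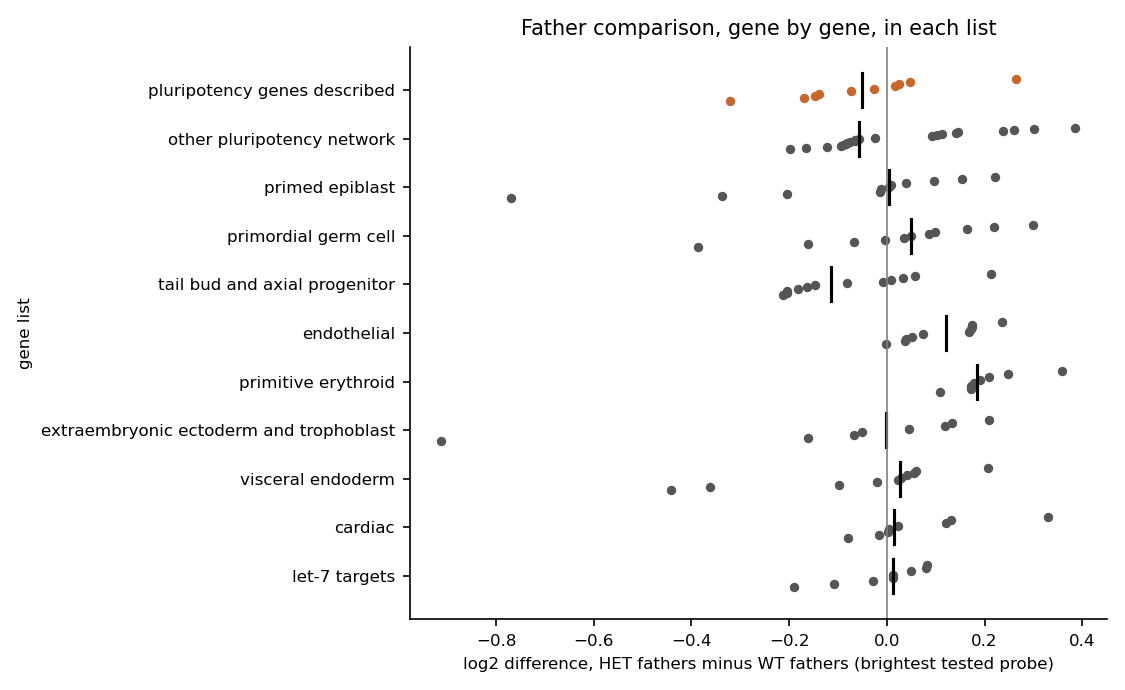
Difference of the log2 means, HET fathers minus WT fathers (horizontal axis), for each tested gene (points) of the 10 genes described (orange) and of each marker list (grey), with the list's median as a black bar. Medians lie between -0.11 (tail bud) and 0.18 (primitive erythroid), and that of the 10 genes is -0.05. The erythroid median turns to -0.039 without WT replicate 4.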

How the data were processed

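The deposited scanner files hold, for every spot of an Agilent SurePrint G3 Mouse GE 8x60K array, an intensity that the authors extracted with Agilent Feature Extraction 11.0.1.1, background-subtracted but not scaled between arrays. Each value here is log2 of that intensity less the array's 75th percentile, averaged over the spots of a probe that were neither controls nor outliers. A probe was tested where its mean was above the lowest 20% and at least 4 arrays read it well above background, which left 33096. Dim probes carry more of the background error. Father groups were compared with limma 3.58.1 (R 4.3.3, package data.table at version 1.17.8), with Benjamini-Hochberg adjustment over all tested probes. Calls needed an adjusted p under 0.01 with a change of at least 2-fold, the thresholds of the study, whose methods name a percentile shift but no percentile and no test. Sex was tested with father group in the fit. The fit was checked on simulated data. Plots were drawn with matplotlib 3.10.9, and small tables made with pandas 2.3.3 and numpy 2.4.6 in Python 3.11.15.

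Of 28685 probes with a RefSeq accession, 27235 were given a symbol through RefSeq (GRCm38.p6, names and upstream sequences only). In the deposited table of the whole series 0 columns were unused. Members and gene lists were chosen with earlier results of these data known. Named were all members with every probe, list genes at an unadjusted p under 0.05 (at most 4 a list), and the 3 genes most correlated with each member. A result under this rule is not reported here. Same-numbered embryos of both groups deviated with r of -0.59 to -0.05, so replicate numbers do not pair them. The other settings were normexp background correction of median spot signals (offset 50, quantile-normalized), array-median and quantile scaling, the series table, 2 other filters, sex, replicate number or embryo code in the fit, averaged probes, other thresholds, and each embryo left out.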

Additional observations from a re-analysis of the deposited data

Results flagged for a closer look

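In groups of 4 embryos, 7 of 54 sets of values held an embryo whose gap to its nearest neighbour took up an unusual share of the group's range, where chance gives about 2.7 (1 in 20). *Esrrb* in WT replicate 4 stood above the other embryos of WT fathers by a gap of 0.853 of the range. The second *Tdgf1* probe, A_55_P2183147, stood below them in WT replicate 2 by 0.834. The mean of the tail bud genes was high in WT replicate 4, with a gap of 0.836. The mean of the primitive erythroid genes was high in HET replicate 2, with a gap of 0.898, and that of the cardiac genes low in HET replicate 4, with a gap of 0.849. Among array measures, the local background of HET replicate 4 was high, with a gap of 0.981, and the median signal of HET replicate 3 was high, with a gap of 0.838.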

How the results depend on the processing

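None of the 10 genes, by its brightest probe or the mean of its probes, passed an adjusted p of 0.05 under any of 19 other settings (smallest 0.534, *Klf4* without HET replicate 3), and *Nanog* had an unadjusted p of 0.0269 under normexp with quantile normalization (-0.20, adjusted p = 0.601 from limma). *Nanog*, *Klf2*, *Klf4*, *Tdgf1* and *Dppa5a* kept their sign under all of these. *Esrrb* turned to -0.12 under normexp, -0.077 under the array-median shift, -0.020 under quantile scaling and -0.069 without both arrays with the most detected probes, a setting chosen after seeing the data. *Lin28a* turned to -0.045 and -0.047 under the first 2 of these and to -0.0088 under the last. *Sall4* turned to -0.079 and -0.069 under the first 2, and *Pou5f1* to 0.066 with embryo code as a random block. With an embryo left out, *Esrrb* ran from -0.060 to 0.14, *Lin28a* from -0.0089 to 0.12, *Pou5f1* from -0.36 to 0.41, *Sall4* from -0.014 to 0.071 and *Utf1* from -0.14 to 0.037. The array-median shift moved the median of all probes to -0.10.

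Over all probes, 0 were called between father groups and 1436 had an unadjusted p under 0.05. The first count was 0 to 1 with an embryo left out (1 without WT replicate 1 or HET replicate 4) and 1 without both arrays with the most detected probes. The second was 2596 under normexp, 408 under the array-median shift, 5367 with no filter, 693 with embryo code as a random block, and 912 to 3034 with an embryo left out. With the replicate block, 881 had an unadjusted p under 0.05, and 0 embryos were closest to their own number. Between sexes 11 were called, against 5 with no filter, 0 with the filter of all 8 arrays, 0 with the replicate block, 5 with probes averaged, 0 without both arrays and 1 to 7 with an embryo left out. The causes were not tested. Signal near background limits *Pou5f1*, *Nanog* and the dim *Tdgf1* probes.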
